A study of Mus musculus and Rattus norvegicus with 30 samples.

Results

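The matrix metalloproteinases (MMPs), the ADAMTS proteases and the tissue inhibitors of metalloproteinases (TIMPs) were followed after nerve injury in dorsal root ganglia (DRG), where the cell bodies of sensory neurons lie. Members were all genes whose symbol starts with Mmp, Adamts or Timp directly followed by a number, with Mmp9 left out. In mouse these were 45 of 54315 features, made up of 22 MMP, 19 ADAMTS and 4 TIMP genes. In rat they were 44 of 39281 features, made up of 21 MMP, 19 ADAMTS and 4 TIMP genes.

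Mouse libraries came from L3 and L4 DRG of single adult animals of both sexes, 28 days after surgery. After spared nerve injury (SNI) there were 4 libraries of BALB/c and 5 of B10.D2, and after sham surgery 6 and 5. SNI cuts the common peroneal and sural branches of the sciatic nerve but spares the tibial branch, and sham animals only had the nerve exposed. Rat libraries came from L5 DRG of male Wistar rats, 21 days after ligation and transection of the L5 spinal nerve (SNT) or after sham surgery, with 3 animals pooled in each library and 4 libraries a group. Mouse RNA was ribodepleted and rat RNA was poly-A selected, so levels are not compared between species. Mouse libraries are named by the number in their title, and rat libraries by letters, A to D in each group as the columns of their count table run.

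MMPs and ADAMTS proteases are zinc enzymes that cut the matrix around cells and also free or activate growth factors and receptors at the cell surface. Most are made as inactive precursors, and TIMPs block the active enzymes. In peripheral nerve and ganglion these families are known for clearing myelin and matrix, for opening the blood-nerve barrier and for remodelling the matrix through which axons grow.

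The surgery labels were checked with a list of 12 axonal injury markers. All 12 were higher after SNI in BALB/c and 11 of 12 in B10.D2. Their summed level was 857 to 1021 CPM (counts scaled to a library of 1000000) in BALB/c SNI against 234.8 to 310.2 CPM in sham, and 394 to 769.7 CPM in B10.D2 SNI against 248 to 307 CPM in sham. In rat, 6 of the 7 markers that could be tested were higher. The library labelled sham D stood apart, with a summed level of 756 CPM against 303 to 339 CPM in the other sham libraries and 1020 to 1490 CPM in SNT. Rat calls below are therefore given with and without it. Of 8 neuron markers all were detected in mouse. In rat, 5 of the 7 found were listed at 0 in every library, as were all 4 satellite glia markers and 52.2% of annotated genes, so a rat gene listed at 0 cannot be read as not expressed. Library totals were 29989963 to 41881331 counts in mouse and 11954612 to 17887909 in rat.

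In the uninjured mouse DRG the inhibitors Timp2 and Timp3 had the highest levels per length of the members. The inhibitors Timp1 and Timp4 stood at ranks 17 and 33 in BALB/c sham and at ranks 12 and 33 in B10.D2 sham. Timp2 stood at 111 ± 7.54 (SD, n = 6) CPM per kilobase (kb) of merged exons in BALB/c sham and at 105 ± 8.21 (SD, n = 5) in B10.D2 sham. Timp3, which stays bound to the matrix and also blocks ADAMTS enzymes, followed with 50.9 ± 6.44 and 39.6 ± 4.53 CPM per kb. These levels lay apart by far more than their SDs, in both strains.

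Among the proteases, the membrane-type Mmp15 came next with 12.8 ± 1.70 and 12.9 ± 1.98 CPM per kb in the same groups. The gelatinase Mmp2 (10.3 ± 1.80 CPM per kb in BALB/c sham), Mmp24 (9.17 ± 0.647), a membrane-type MMP known from neurons, and the aggrecanase Adamts5 (9.10 ± 0.714) lay within an SD of each other in BALB/c. In B10.D2 sham Mmp2 was at rank 7 of the members rather than rank 4, at 7.68 ± 1.15 CPM per kb. On the CPM scale the leading members of each family in sham were Mmp15 (69.1 CPM in BALB/c, 69.5 CPM in B10.D2), Adamts5 (98.2 and 90.5 CPM) and Timp2 (432 and 409 CPM). In rat, where Mmp15, Adamts5 and Timp2 are listed at 0 and cannot be placed, they were Mmp24 (60.4 CPM), Adamts12 (102 CPM) and Timp3 (452 CPM). Without the library labelled sham D, Adamts10 (93.5 ± 7.15 CPM, SD, n = 3) and Adamts12 (89.7 ± 16.6 CPM) lay within an SD of each other.

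**Figure D1:**
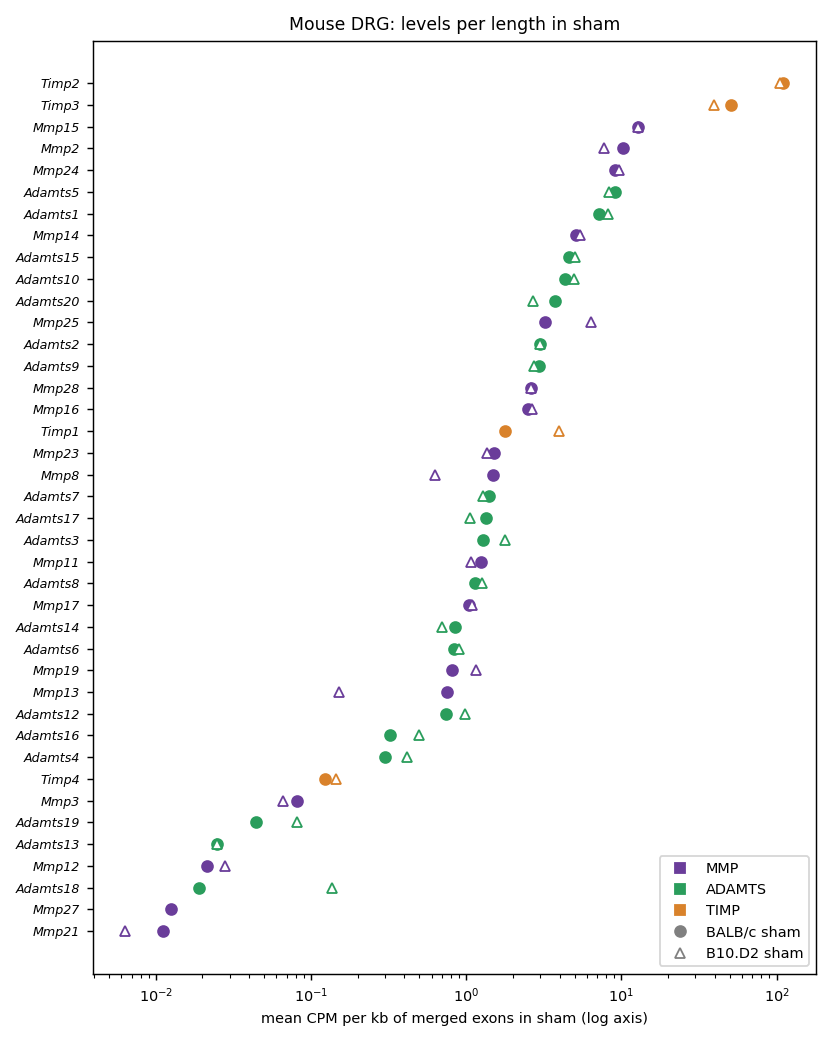
Mean level of each member in sham mouse DRG, as CPM per kb of merged exons on a log axis, for members above 0.01 CPM per kb in BALB/c. Filled circles are BALB/c sham (n = 6), open triangles B10.D2 sham (n = 5) and colour gives the family. Timp2 and Timp3 lie at the top in both strains, and the open triangles of Mmp25, Timp1 and Adamts18 lie well to the right of their circles.

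At the other end, Mmp1a, Mmp1b and Mmp7 had no count in any of the 20 mouse libraries. Mmp3, Mmp10, Mmp20, Mmp21, Mmp27 and Adamts13 were removed by the filter on low counts, with a highest level of 0.308 CPM, and 36 of 45 members were tested. In rat 17 members were listed at 0 in all 8 libraries, namely Adamts1, Adamts2, Adamts3, Adamts4, Adamts5, Adamts14, Adamts18, Adamts19, Mmp1, Mmp2, Mmp11, Mmp14, Mmp15, Mmp17, Mmp27, Mmp28 and Timp2. Several of these are well counted in mouse, where Timp2 averaged 414 CPM and Adamts5 95.1 CPM over all libraries. Mmp1b, Mmp10, Mmp20 and Mmp21 were removed by the filter in rat, and 23 of 44 members were tested.

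Injury was tested first in BALB/c. A gene is called when its p-value, adjusted over all features tested, is under 0.05. In BALB/c 6 of 36 tested members were called, all 6 higher after SNI, against 9.69% of all 24685 features called in either direction and 4.82% called higher. They were Mmp16, Mmp19, Adamts19, Mmp12, Timp1 and Mmp2. Of these, Mmp12 could not pass the filter on low counts without SNI libraries. No member was called lower. In B10.D2 3 of 36 were called, all 3 higher, against 4.58% of features called and 2.10% called higher, and they were Mmp16, Mmp17 and Mmp19. The median log2 fold change over the tested members was 0.17 in BALB/c and 0.19 in B10.D2, beside 0.00326 and 0.00756 over all features, and 28 and 27 of the 36 members lay above 0. SNI and sham ranges did not overlap for 5 of the 36 members in BALB/c, beside 8.61% of all features. In B10.D2 this held for 4 of the 36, beside 5.18% of all features. In these whole ganglia, more cells of a type and more RNA per cell cannot be told apart.

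**Figure D2:**
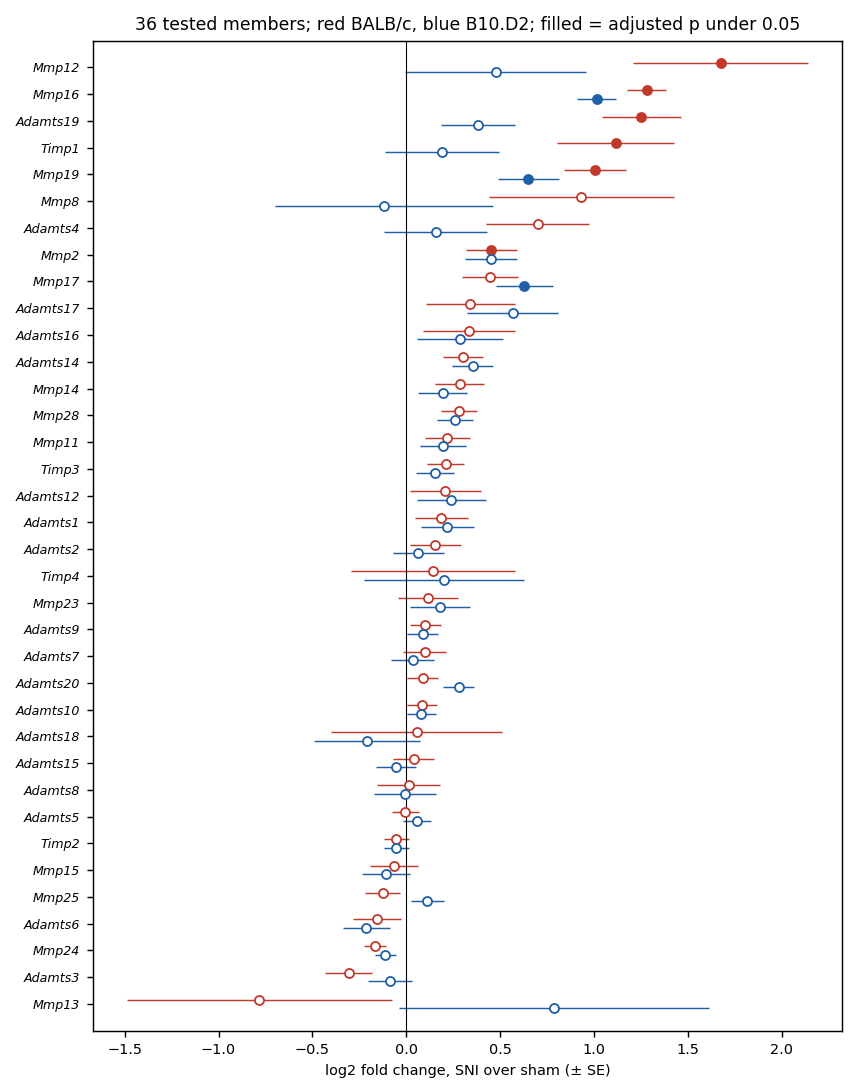
Log2 fold change of SNI over sham (x axis, with its SE) for the 36 tested members in BALB/c (red, 4 SNI and 6 sham libraries) and B10.D2 (blue, 5 and 5). Filled points are called at an adjusted p under 0.05. Mmp16 and Mmp19 are filled in both strains, and no filled point lies left of 0.

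Mmp16 changed most clearly of all members. It encodes a membrane-type MMP (MT3-MMP) that sits at the cell surface and can activate the Mmp2 precursor. On mm10 it spans chr4:17852893-18119145 on the plus strand. In BALB/c sham it ranged from 18.4 to 25.8 CPM with a median of 21.2 CPM, and the 4 SNI libraries stood at 56.9, 56.7, 47.6 and 48.5 CPM. B10.D2 sham libraries 58, 60, 67, 77 and 88 stood at 22.1, 23.5, 22.3, 21.1 and 26.4 CPM. The 5 B10.D2 SNI libraries 69, 76, 78, 89 and 90 stood at 49.9, 32.7, 45.7, 52.3 and 47.9 CPM. Every SNI library lay above every sham library of its strain, with library 76 the lowest of the injured animals. Its log2 fold change was 1.28 ± 0.10 (SE), or 2.43-fold, in BALB/c (adjusted p = 1.03e-07, edgeR) and 1.01 ± 0.11, or 2.02-fold, in B10.D2 (adjusted p = 7.73e-06).

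The other 5 membrane-type MMPs did not follow it as a group. Mmp17 (MT4-MMP), which is held in the membrane by a lipid anchor, was called by edgeR in B10.D2 alone among the strains. Its sham libraries there stood at 7.86, 8.11, 7.06, 6.41 and 6.42 CPM in the order given above, and its SNI libraries at 15.2, 8.63, 9.21, 9.07 and 13.2 CPM. The groups did not overlap, and libraries 69 and 90 carried most of the difference. This gave a log2 fold change of 0.63 ± 0.15 (adjusted p = 0.0174). Without library 69, sham 77 or library 90 it was no longer called. In BALB/c the mean was 9.42 ± 0.911 CPM after SNI (SD, n = 4) and 6.92 ± 1.15 CPM in sham (SD, n = 6), a log2 difference of 0.45 ± 0.15 with an adjusted p of 0.0695, and the difference between the strains was not called. DESeq2 called Mmp17 in BALB/c as well. Mmp14, Mmp15, Mmp24 and Mmp25 were not called in either strain by edgeR, and DESeq2 called Mmp24 lower in BALB/c.

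Mmp19 was called in both strains. It is a secreted MMP that cuts basement membrane proteins. BALB/c sham libraries ranged from 2.15 to 4.39 CPM with a median of 2.65 CPM, against 4.57, 6.37, 6.51 and 5.73 CPM in SNI libraries 49, 64, 65 and 70. In B10.D2 the sham libraries stood at 4.97, 4.01, 3.70, 3.97 and 3.69 CPM and the SNI libraries at 8.15, 6.08, 7.56, 5.27 and 5.88 CPM. Groups did not overlap in either strain, although the lowest SNI value and the highest sham value lay close. Log2 fold changes were 1.01 ± 0.16 in BALB/c (adjusted p = 0.000325) and 0.65 ± 0.16 in B10.D2 (adjusted p = 0.0233). The B10.D2 call was lost without sham 67 or 77 or without SNI 69, 78 or 90. Of the merged exon bases of Mmp19, 22.3% lie on exons of Tmem198b on the opposite strand, and whether counting used strand is not given in the sources used here.

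Mmp2, gelatinase A, which cuts denatured and basement membrane collagen, moved by a smaller ratio. BALB/c sham ranged from 26.2 to 43.7 CPM with a median of 35.8 CPM, against 35.4, 51.6, 55.2 and 47.5 CPM in SNI libraries 49, 64, 65 and 70. Library 49 fell inside the sham range. The log2 fold change was 0.45 ± 0.14 (adjusted p = 0.0402), and the call was lost in 7 of 20 fits without 1 library. In B10.D2 the value was 0.45 ± 0.14 with an adjusted p of 0.0722 by edgeR, with means of 35.98 CPM after SNI and 25.9 CPM in sham. DESeq2 called Mmp2 in B10.D2.

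Adamts19 is a little-studied ADAMTS with a low level in DRG. BALB/c sham libraries held 0.53 to 0.895 CPM with a median of 0.549 CPM, and SNI libraries 49, 64, 65 and 70 held 1.04, 1.96, 1.63 and 1.30 CPM. The groups did not overlap. In B10.D2 the sham libraries already stood at 0.731, 0.935, 1.55, 1.17 and 1.30 CPM, and the SNI libraries stood at 1.26, 1.76, 1.26, 1.71 and 1.60 CPM. The log2 fold change was 1.25 ± 0.21 in BALB/c (adjusted p = 0.000425), and the B10.D2 groups overlapped. The B10.D2 minus BALB/c difference in injury change was -0.87 ± 0.29 on the log2 scale with an unadjusted p of 0.00652 and an adjusted p of 1.

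Timp1, the inhibitor known to be induced in injured tissue, was called in BALB/c. Sham libraries ranged from 1.08 to 2.05 CPM with a median of 1.68 CPM, and SNI libraries 49, 64, 65 and 70 stood at 2.79, 3.54, 3.68 and 3.66 CPM with no overlap. The log2 fold change was 1.11 ± 0.31 (adjusted p = 0.0259). Without SNI 64 or 65, or sham 51, 57 or 71, it was not called. B10.D2 sham libraries spread widely, at 4.24, 6.72, 1.28, 1.86 and 3.57 CPM, and covered the whole range of the BALB/c SNI libraries. B10.D2 SNI libraries stood at 4.77, 2.60, 3.30, 2.89 and 5.01 CPM. The strain by injury difference was -0.92 ± 0.44 (unadjusted p = 0.0467, adjusted p = 1). Timp2, Timp3 and Timp4 were not called after SNI in either strain.

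Mmp12, macrophage elastase, was called in BALB/c at a level near the detection limit. Sham libraries held 0 to 15 counts each, or 0 to 0.362 CPM with a median of 0.125 CPM. SNI libraries 49, 64, 65 and 70 held 0.357, 0.627, 0.519 and 0.539 CPM, and library 49 fell just inside the sham range. On the log2 scale the rise was 1.67 ± 0.47 (adjusted p = 0.0255). It was lost in 5 of the 20 fits without 1 library, namely without sham 51 or 57 or SNI 64, 65 or 70. Mmp12 could not pass the filter on low counts without SNI libraries. A call higher was thus favoured by the filter, and this call is not taken as support for a rise. B10.D2 sham libraries stood at 0.146, 0.0905, 0.272, 0.266 and 0.241 CPM and SNI libraries at 0.223, 0.408, 0.146, 0.187 and 0.504 CPM, and these overlapped.

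**Figure D3:**
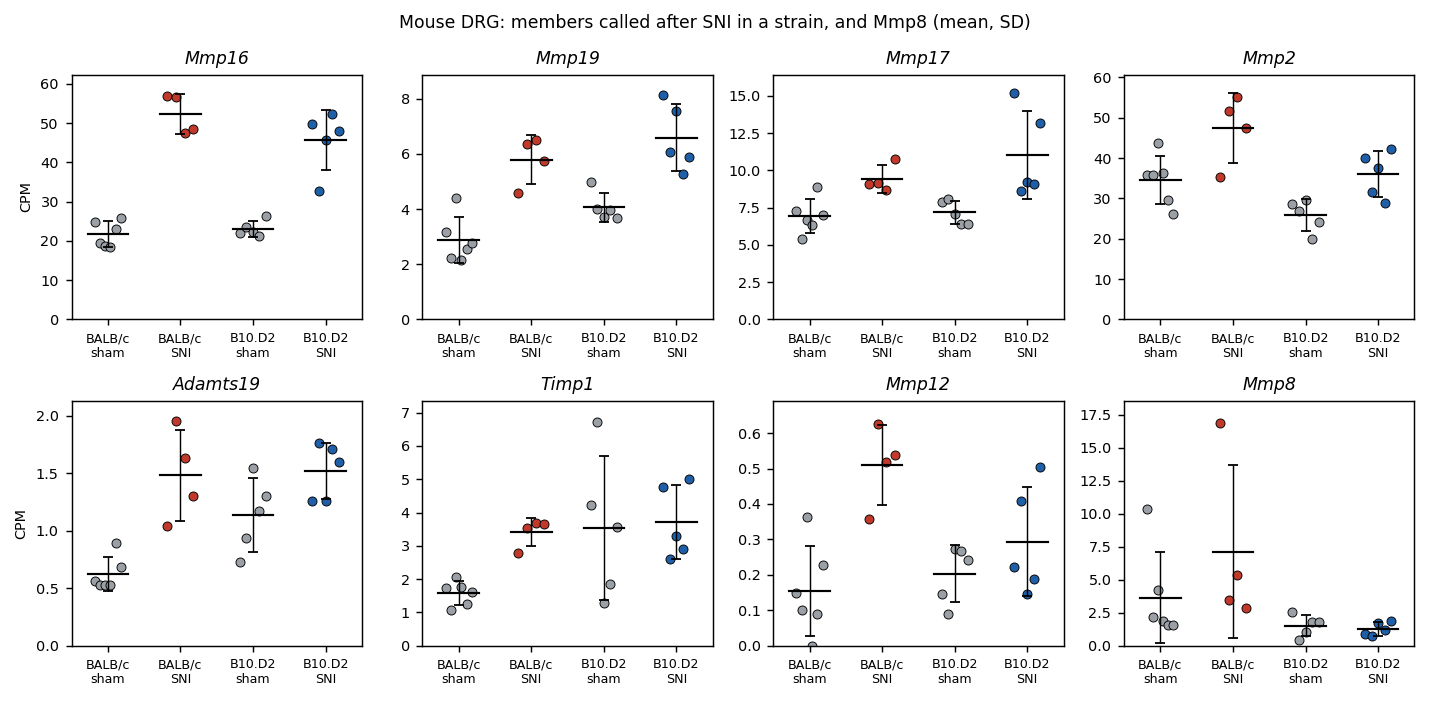
CPM of the members called after SNI in at least 1 strain, and of Mmp8, in each mouse library (points), with group mean (bar) and SD (whiskers). Grey is sham, red BALB/c SNI and blue B10.D2 SNI. For Mmp16 every SNI point lies above every sham point of its strain, while the B10.D2 sham points of Timp1 spread from 1.28 to 6.72 CPM.

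By role, 1 of 6 membrane-type MMPs was called higher in BALB/c and 2 of 6 in B10.D2, beside 4.82% and 2.10% of all features called higher. None of the 7 aggrecanase or proteoglycan-cleaving ADAMTS, of the 3 procollagen N-proteinases (Adamts2, Adamts3 and Adamts14, which trim procollagen ends) or of the 2 ADAMTS that cut cartilage oligomeric matrix protein (Adamts7 and Adamts12) was called in either strain by edgeR. Over all features 9.69% were called in BALB/c and 4.58% in B10.D2. With so few members in a role, the lack of a call is not read as a result about it. At an unadjusted p under 0.05, 13 of the 36 members passed in BALB/c and 8 in B10.D2, beside 5739 and 4149 of all 24685 features. Adamts20 in B10.D2 (log2 fold change 0.28 ± 0.08, adjusted p = 0.0604) and Adamts14 in both strains (0.30 ± 0.11, adjusted p = 0.0859, and 0.35 ± 0.11, adjusted p = 0.0708) were among those that missed the threshold after adjustment. DESeq2 called both in B10.D2.

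No member was called for a strain by injury difference, beside 0.0243% of all features. An unadjusted p under 0.05 was found for 2 of 36 members, beside 1073 of all 24685 features. DESeq2 called no member either. For Mmp16 the difference B10.D2 minus BALB/c was -0.27 ± 0.15 on the log2 scale (adjusted p = 1), with a 95% interval of -0.56 to 0.03. Sex was a term of the model, and no member was called between females and males, beside 0.243% of features. The smallest adjusted p was 0.168, for Adamts9, an ADAMTS that cuts versican. For sex, 7 of 36 members had an unadjusted p under 0.05, beside 2899 of all 24685 features. DESeq2 called 0 members for sex.

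Markers of other cells moved with SNI in BALB/c. Of 8 macrophage markers 3 were called higher, Cx3cr1, Cd68 and Csf1r, and their list summed to 129 to 205 CPM after SNI against 69.7 to 177 CPM in sham. No macrophage marker was called in B10.D2, with sums of 149 to 239.8 CPM against 136 to 164 CPM. Of 6 fibroblast markers Lum alone was called, higher in both strains, and the list summed to 1527 to 2650 CPM in BALB/c SNI against 1337 to 2013 CPM in sham. All 8 macrophage and all 6 fibroblast markers were detected. The part of these cells in the member changes was not tested.

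Mmp8, neutrophil collagenase, was high in the BALB/c libraries with the highest neutrophil markers. It reached 10.3 CPM in BALB/c sham 50 and 16.8 CPM in SNI 49, beside 1.58 to 4.22 CPM in the other 5 sham and 2.86 to 5.37 CPM in the other 3 SNI libraries. The 5 neutrophil markers summed to 218 CPM in sham 50 and 358 CPM in SNI 49, against 29.0 to 119.9 CPM and 58.4 to 123 CPM in the other libraries of those groups. Mmp8 was not called in the comparison of BALB/c SNI with sham. Without both libraries, a choice made after seeing the data, the 6 members above stayed called in BALB/c. Adamts4 and Mmp28 were then also called higher and Mmp24 lower. The share of all features called in that fit is not given here, so the added calls are not read as particular to the members.

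The genes that regulate these enzymes were followed with a list of 29 activators and other regulators and one of 26 substrates. Of 27 regulators tested, 5 were called higher and 4 lower in BALB/c, and 3 higher and 0 lower in B10.D2. These are 33.3% and 11.1% of the list, beside the 9.69% and 4.58% of all features called. Adam8, a membrane protease of the related ADAM family, was called higher in both, at 32.0 CPM against 12.7 CPM in BALB/c (log2 fold change 1.34 ± 0.10, adjusted p = 4.23e-08) and 23.1 CPM against 11.5 CPM in B10.D2 (0.996 ± 0.10, adjusted p = 7.84e-06). The plasminogen activators Plat (0.59 ± 0.14, adjusted p = 0.0087) and Plau (0.33 ± 0.08, adjusted p = 0.0109) and the receptor Plaur (0.50 ± 0.09, adjusted p = 0.00076) rose in BALB/c. The testican genes Spock1, Spock2 and Spock3 fell there, by 0.42, 0.31 and 0.36 on the log2 scale.

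Of 26 substrates tested, 7 were called higher and 2 lower in BALB/c, and 1 higher and 1 lower in B10.D2, or 34.6% and 7.69% of the list beside the same shares of all features. Acan, which encodes the proteoglycan aggrecan, had the largest change of the list in BALB/c, from 0.250 CPM in sham to 1.25 CPM after SNI (log2 fold change 2.34 ± 0.54, adjusted p = 0.00724). Matn2, Lama2, Lamb1, Lama4, Reln and Thbs2 also rose in BALB/c, and Comp and Lrp1b fell. In B10.D2 Lama4 rose (0.22 ± 0.06, adjusted p = 0.0468) and Bcan, brevican, fell by 0.36 on the log2 scale (adjusted p = 0.0230).

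The strains were compared in sham. Of 36 members 12 were called, 8 higher and 4 lower in B10.D2 than in BALB/c, against 21.6% of all features called, 11.5% higher and 10.03% lower. The shares of members were 33.3%, 22.2% and 11.1%, and the median log2 difference was 0.07 over members and -0.01 over all features. Adamts18, among the 8 called higher, could not pass the filter on low counts without B10.D2 libraries. The sham ranges of the strains did not overlap for 4 of the 36 members, beside 13.3% of all features.

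Mmp25 differed most clearly. Mmp25 (MT6-MMP), a lipid-anchored MMP known from leukocytes, ranged from 15.2 to 19.5 CPM in BALB/c sham with a median of 16.4 CPM. In B10.D2 sham libraries 58, 60, 67, 77 and 88 it stood at 32.5, 36.8, 32.9, 31.5 and 34.5 CPM. The groups did not overlap, and the log2 difference was 0.96 ± 0.09 (adjusted p = 2.73e-08). SNI libraries kept the strain levels, with means of 15.8 CPM in BALB/c and 35.7 CPM in B10.D2.

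Adamts18 was low in BALB/c sham, at 0.0501 to 0.459 CPM with a median of 0.146 CPM, which are 2 to 19 counts a library. It stood at 0.965, 1.30, 1.93, 1.57 and 1.16 CPM in the B10.D2 sham libraries, again without overlap. The log2 difference was 2.88 ± 0.33, or 7.37-fold (adjusted p = 1.07e-06). Adamts18 could not pass the filter on low counts without B10.D2 libraries. A call higher in B10.D2 was thus favoured by the filter, and this call is not taken as support for a strain difference. After SNI the means were 0.203 CPM in BALB/c and 1.29 CPM in B10.D2.

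Adamts3, a procollagen N-proteinase, was higher in B10.D2 sham (9.73 ± 0.718 CPM, SD, n = 5) than in BALB/c sham (6.97 ± 0.337 CPM, SD, n = 6) without overlap, with a log2 difference of 0.48 ± 0.11 (adjusted p = 0.00379). Means after SNI were 9.15 CPM and 5.62 CPM. Adamts20, which cuts versican, was lower in B10.D2, at 24.4 ± 1.38 CPM against 33.4 ± 3.63 CPM, also without overlap (log2 difference -0.46 ± 0.08, adjusted p = 0.000134). SNI libraries averaged 29.1 CPM in B10.D2 and 35.5 CPM in BALB/c.

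**Figure D4:**
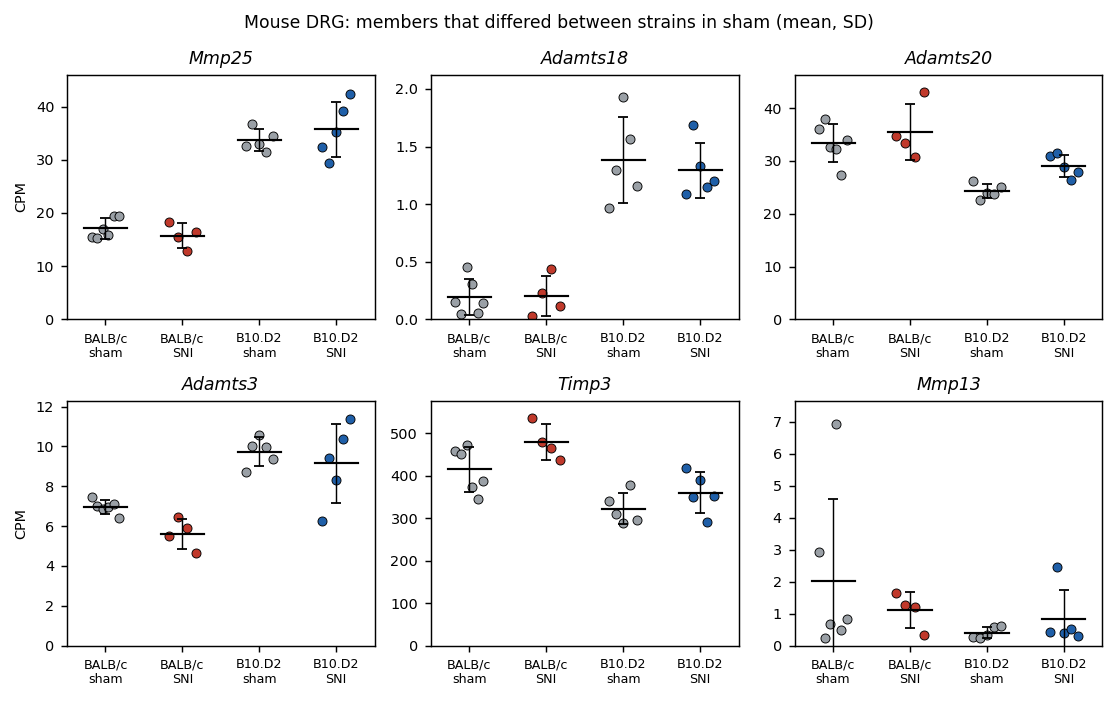
CPM of 6 members that differed between the strains in sham, in each mouse library (points), with group mean (bar) and SD (whiskers). Grey is sham, red BALB/c SNI and blue B10.D2 SNI. For Mmp25, Adamts18, Adamts20 and Adamts3 the sham libraries of the strains do not overlap, while the Mmp13 mean in BALB/c sham rests on libraries 56 (6.92 CPM) and 50 (2.92 CPM).

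Timp3 was lower in B10.D2 sham, at 323 ± 36.9 CPM against 415 ± 52.5 CPM in BALB/c (log2 difference -0.36 ± 0.10, adjusted p = 0.00856), and averaged 360.4 CPM and 479.6 CPM after SNI. Mmp2 was lower too, at 25.9 ± 3.87 CPM against 34.6 ± 6.06 CPM (-0.40 ± 0.13, adjusted p = 0.0335). Timp1 (3.54 ± 2.15 CPM against 1.58 ± 0.357 CPM, adjusted p = 0.0148), Mmp19 (4.07 ± 0.53 CPM against 2.87 ± 0.831 CPM, adjusted p = 0.0219) and Adamts19 (1.14 ± 0.318 CPM against 0.622 ± 0.147 CPM, adjusted p = 0.00247) were higher. Ranges of these 5 members overlapped between the strains. The Timp1 call was lost without B10.D2 sham 60 and the Mmp19 call without BALB/c sham 51 or B10.D2 sham 58. The Mmp2 call held in 14 of the 20 fits without 1 library. Of the merged exon bases of Timp3, 21.3% lie on exons of Syn3 on the opposite strand, and Timp1 shares none with Syn1, inside which it lies.

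The calls of Adamts10, Adamts16 and Mmp13 were the weakest. Adamts10, linked to fibrillin microfibrils, averaged 40.8 ± 2.47 CPM in B10.D2 and 35.6 ± 4.66 CPM in BALB/c sham (adjusted p = 0.0430), and 44.3 CPM and 37.8 CPM after SNI. Adamts16 averaged 3.41 ± 1.35 CPM and 2.22 ± 0.533 CPM (adjusted p = 0.0439), and 4.33 CPM and 2.81 CPM after SNI. Mmp13, collagenase-3, averaged 0.404 ± 0.177 CPM in B10.D2 and 2.01 ± 2.59 CPM in BALB/c sham (adjusted p = 0.0458), and 0.825 CPM and 1.12 CPM after SNI. Its BALB/c SD exceeds its mean. Leaving out 1 library at a time ended the call in 10 of 20 fits for Adamts10, in 11 of 20 for Adamts16 and in 10 of 20 for Mmp13, which was lost without either BALB/c sham 50 or 56.

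Cell markers differed between the strains in sham as well, and all lists but that of Schwann cells held a called gene. Of 8 macrophage markers 3 were called higher in B10.D2 (Adgre1, Aif1 and Cx3cr1), with sums of 136 to 164 CPM against 69.7 to 177 CPM. Of 5 neutrophil markers 2 were called lower (Ngp and Mpo), with sums of 15.1 to 55.4 CPM against 29.0 to 218 CPM. Of 4 pericyte markers 3 were called lower, with sums of 248 to 297 CPM against 248 to 343 CPM. Of 6 fibroblast markers Dcn and Lum were called higher and Col1a1 lower, with sums of 1577 to 1613 CPM against 1337 to 2013 CPM. Of 4 skeletal muscle markers Ckm and Acta1 were called lower, with sums of 4.98 to 17.5 CPM against 5.94 to 541 CPM. The endothelial Kdr and Pecam1 and the glial Kcnj10 were called lower, and the neuronal Isl1 and Uchl1, Cd3e of T cells and the glial Aqp4 higher. All markers of these lists were detected. Their part in the strain differences was not tested.

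In mouse, 10 MMP members with a promoter window in the RefSeq table lie side by side on chromosome 9, from Mmp13 (chr9:7272514-7283331, mm10, plus strand) to Mmp7 (chr9:7692090-7699585, plus strand). They include the called Mmp12 (chr9:7344381-7369499) and Mmp13, and the sequences before the starts of 7 of them are shown because they hold the letters of a short motif. Motif and sequences were chosen with results of these data known. The AP-1 letters TGACTCA and TGAGTCA, which are each other's reverse complement and so cover both strands, were searched in windows from 250 bases before to 50 after each start. They were present in a window of 7 of these 10 members and in none of the other 22 members with a window, beside 5.2% of all 32851 windows in the table. The CRE letters TGACGTCA, read the same on both strands and not overlapping the AP-1 letters, were in no member window, beside 1.79% of all windows. A match is a description of the letters. The lines below run from 100 bases before to 50 bases after the start on GRCm38.p6, 5′ to 3′, from RefSeq, with the AP-1 letters in capitals.
Mmp13 (chr9:7272414-7272563, plus strand): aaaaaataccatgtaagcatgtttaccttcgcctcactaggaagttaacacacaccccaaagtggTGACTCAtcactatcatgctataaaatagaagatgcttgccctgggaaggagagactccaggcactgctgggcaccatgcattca
Mmp12 (chr9:7347274-7347423, plus strand): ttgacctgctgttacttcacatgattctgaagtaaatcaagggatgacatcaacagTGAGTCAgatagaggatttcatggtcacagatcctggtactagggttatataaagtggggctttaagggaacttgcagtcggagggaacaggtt
Mmp1b (chr9:7387977-7388126, minus strand): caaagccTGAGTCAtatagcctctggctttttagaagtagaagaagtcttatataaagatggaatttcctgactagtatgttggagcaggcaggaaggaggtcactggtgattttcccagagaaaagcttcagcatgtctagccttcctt
Mmp3 (chr9:7445722-7445871, plus strand): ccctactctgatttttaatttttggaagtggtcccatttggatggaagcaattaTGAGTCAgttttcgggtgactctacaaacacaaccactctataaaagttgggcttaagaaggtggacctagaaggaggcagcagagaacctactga
Mmp1a (chr9:7464041-7464190, plus strand): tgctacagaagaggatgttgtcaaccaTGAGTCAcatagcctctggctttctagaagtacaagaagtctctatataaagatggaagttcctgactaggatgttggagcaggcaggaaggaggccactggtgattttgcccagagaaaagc
Mmp10 (chr9:7502242-7502391, plus strand): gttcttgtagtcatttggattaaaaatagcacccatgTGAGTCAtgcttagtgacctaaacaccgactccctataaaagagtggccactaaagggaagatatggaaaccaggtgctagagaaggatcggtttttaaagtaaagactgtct
Mmp7 (chr9:7691990-7692139, plus strand): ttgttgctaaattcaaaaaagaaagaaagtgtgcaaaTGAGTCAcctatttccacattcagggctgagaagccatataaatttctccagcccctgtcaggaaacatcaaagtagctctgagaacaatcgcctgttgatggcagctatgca
The motif starts 35, 44, 93, 46, 73, 63 and 63 bases before the start in these 7 genes. Mmp12 and Mmp7 each have a second window in the table without these letters. Of the 7 genes only Mmp12 and Mmp13 passed the filter in mouse. Mmp3 and Mmp10 are stromelysins, which cut proteoglycans and other matrix proteins, and Mmp7 is the small MMP matrilysin.

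Assembled LncRNAs, the transcripts that the authors built from reads outside annotated genes, lay inside or within 10 kb of 7 mouse members. There were 8 of them, beside Adamts17, Mmp13, Mmp14, Mmp15, Mmp2, Mmp23 and Timp2. Only LncRNA4742, on the same strand as Mmp23 (9.82 ± 0.429 CPM in BALB/c sham), was above 2 CPM in a group mean. None of the 8 was called after SNI or between the strains.

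In rat 7 of 23 tested members were called after SNT, 6 higher and 1 lower, against 27.4% of all 13690 features called, 12.3% higher and 15.1% lower. The share of members called was 30.4%, with 26.1% higher and 4.35% lower. The median log2 fold change was 0.53 over the members and 0.00266 over all features. SNT and sham ranges did not overlap for 4 of the 23 members, beside 26.5% of all features. Without the library labelled sham D, 13 of 24 members were called, 12 of them higher, beside 34.6% of features called and 17.3% higher. Among these 12 are Mmp7, Mmp10 and Mmp12, which could then pass the filter on low counts only through SNT libraries. Mmp3 and Mmp8, also among them, could not pass it through sham libraries alone. With all libraries, the called members were Mmp16, Mmp19, Mmp23, Adamts7, Adamts20 and Timp3, which rose, and Timp4, which fell.

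Mmp16 stood at 26.8, 32.9, 30.9 and 74.8 CPM in rat sham libraries A to D, and at 76.3, 92.6, 99.9 and 117 CPM in SNT libraries A to D. The library labelled sham D lay just below SNT A and far above the other sham libraries. In rat its log2 fold change was 1.22 ± 0.30 (adjusted p = 0.0190) and 1.69 ± 0.16 without sham D (adjusted p = 0.000533). Leaving out sham A, B or C, or SNT D, ended the call.

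Mmp19 stood at 23.2, 15.3, 25.8 and 49.3 CPM in sham and 46.9, 69.7, 82.1 and 64.03 CPM in SNT, where sham D lay above SNT A. Its log2 fold change was 1.21 ± 0.32 (adjusted p = 0.0223) and 1.63 ± 0.23 without sham D (adjusted p = 0.00212). It was not called without sham A or C or SNT B or C. Mmp23, a membrane MMP without the usual hemopexin domain, stood at 16.2, 9.03, 10.1 and 20.2 CPM in sham and at 18.5, 33.9, 25.4 and 24.8 CPM in SNT (0.89 ± 0.27, adjusted p = 0.0368, and 1.14 ± 0.26 without sham D, adjusted p = 0.00931). It was called in 2 of the 8 fits without 1 library.

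Among the ADAMTS, Adamts20 stood at 47.6, 38.6, 50.9 and 56.1 CPM in sham and at 57.6, 127, 108 and 91.3 CPM in SNT. The groups did not overlap, but sham D and SNT A were close. The log2 fold change was 0.99 ± 0.22 (adjusted p = 0.0142) and 1.09 ± 0.24 without sham D, and it was called in every fit without 1 library. Adamts7, which cuts cartilage oligomeric matrix protein, stood at 30.8, 22.8, 26.9 and 35.8 CPM in sham and at 33.8, 66.7, 61.8 and 48.5 CPM in SNT, with SNT A below sham D. Its log2 fold change was 0.86 ± 0.22 (adjusted p = 0.0195) and 0.99 ± 0.23 without sham D, and it was not called without sham B or C or SNT B or C. Adamts12, which shares that substrate, missed the threshold (0.56 ± 0.19, adjusted p = 0.0502) and passed it without sham D (0.76 ± 0.16, adjusted p = 0.00799).

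**Figure D5:**
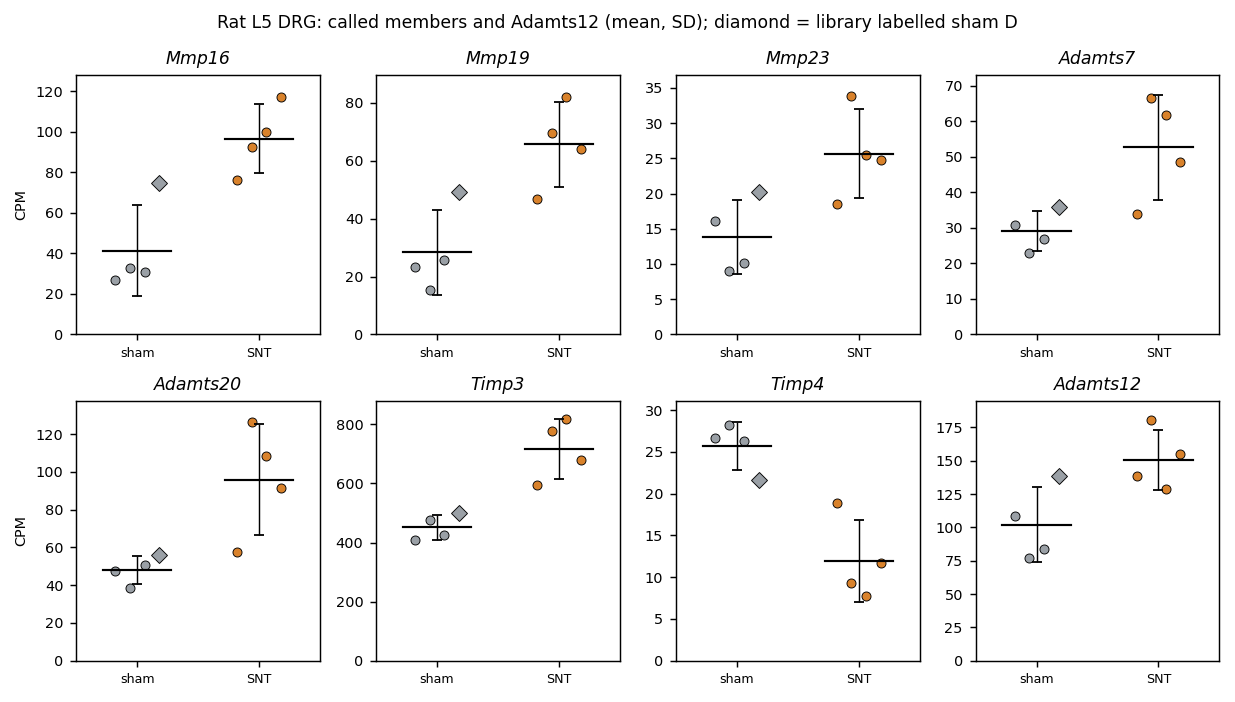
CPM of the 7 members called in rat and of Adamts12 in each library (points), for 4 sham (grey) and 4 SNT (orange) pools of L5 DRG, with group mean (bar) and SD (whiskers). The diamond is the library labelled sham D. It is the highest sham point in the panels of Mmp16, Mmp19, Mmp23, Adamts7, Adamts20, Timp3 and Adamts12 and the lowest in that of Timp4.

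The inhibitors moved in opposite directions. Timp3 stood at 408, 475, 424 and 499 CPM in sham and at 594, 778, 817 and 679 CPM in SNT, without overlap. Its log2 fold change was 0.67 ± 0.13 (adjusted p = 0.0122) and 0.73 ± 0.15 without sham D. Timp4 stood at 26.7, 28.2, 26.4 and 21.6 CPM in sham and at 18.8, 9.26, 7.78 and 11.7 CPM in SNT, also without overlap, and fell by 1.11 on the log2 scale (SE 0.25, adjusted p = 0.0145), or by 1.18 without sham D. Both were called in all 8 fits without 1 library. Timp1 was not called, at 111.5, 62.7, 102 and 147 CPM in sham and 113.5, 135, 159 and 130.4 CPM in SNT (0.35 ± 0.22, adjusted p = 0.256). Without sham D the value was 0.56 ± 0.20 (adjusted p = 0.0531), and without sham D and SNT A it was called (0.63 ± 0.20, adjusted p = 0.0263).

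Of the rat genes named as the mouse chromosome 9 neighbours shown above, Mmp10, Mmp12 and Mmp13 were highest by far in SNT C. Mmp12 stood at 0.166, 0.244, 0.499 and 7.56 CPM in sham and at 2.85, 7.30, 68.3 and 2.16 CPM in SNT. Mmp10 reached 45.0 CPM in SNT C and at most 1.45 CPM elsewhere, and Mmp13 reached 37.7 CPM there and at most 2.69 CPM elsewhere. Mmp3 stood at 0.166, 0.732, 0.855 and 5.73 CPM in sham and 7.97, 4.41, 7.45 and 6.95 CPM in SNT, so that sham D lay inside the SNT range. Mmp7 was at most 0.0712 CPM in sham A to C, 1.17 CPM in sham D, and 1.33, 3.38, 1.501 and 0.328 CPM in SNT. Mmp10 was removed by the filter with all 8 libraries, and Mmp3, Mmp7, Mmp12 and Mmp13 were tested and not called. Mmp13 had a log2 fold change of 2.65 ± 1.13 (adjusted p = 0.102) and of 2.52 ± 1.27 without sham D (adjusted p = 0.149). Mmp8 stood at 14.7 CPM in sham D, above every SNT library, while the neutrophil markers summed there to 2.80 CPM, the lowest of the sham libraries. With no filter on low counts Mmp10 was called (5.96 ± 1.53, adjusted p = 0.0201). Without sham D, Mmp3 (3.46 ± 0.40, adjusted p = 0.00111), Mmp7 (4.94 ± 1.05, adjusted p = 0.00754), Mmp8 (1.92 ± 0.61, adjusted p = 0.0352), Mmp10 (7.80 ± 2.39, adjusted p = 0.0317) and Mmp12 (6.03 ± 1.57, adjusted p = 0.0167) were called as log2 fold changes. These folds are against sham libraries with few or no counts of the genes and so depend on the prior count. In sham A to C, Mmp7 and Mmp10 held 0, 1 and 1 counts and Mmp12 held 2, 4 and 7. Without sham D these 3 genes could pass the filter on low counts only through SNT libraries. Mmp3 and Mmp8 could not pass it through sham libraries alone. A call higher was thus favoured by the filter. The calls of Mmp3, Mmp7, Mmp8, Mmp10 and Mmp12 without sham D are not taken as support for a rise.

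Marker lists moved in rat too. Of 8 macrophage markers 4 were listed at 0 (Aif1, Cd68, Csf1r and Mrc1), 1 of the other 4 was called higher (Cx3cr1), and the list summed to 288 to 417 CPM in SNT against 88.4 to 326 CPM in sham. Without sham D all 4 tested macrophage markers were called higher, and sham A to C summed to 88.4 to 147 CPM. Of 6 fibroblast markers 2 were listed at 0 (Col1a1 and Pdgfra) and 2 of 4 tested were called higher, with sums of 6625 to 10790 CPM against 2979 to 5332 CPM. Of 4 Schwann cell markers tested 3 were called higher, with sums of 2636 to 4402 CPM against 2180 to 2739 CPM. The fibroblast and Schwann cell counts were 2 and 3 without sham D as well. Their part in the member changes was not tested.

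Of 19 regulators tested in rat 5 were called higher and 1 lower, or 31.6% beside 27.4% of all features, and 9 higher and 2 lower without sham D, or 57.9% beside 34.6%. Adam8 was higher again (17.4 CPM against 7.89 CPM, log2 fold change 1.14 ± 0.26, adjusted p = 0.0147, and 1.48 ± 0.19 without sham D), as was Reck, a membrane inhibitor of MMPs (0.52 ± 0.10, adjusted p = 0.0114), and Furin, which removes the propeptide of membrane-type MMPs (0.61 ± 0.16, adjusted p = 0.0203). Of 17 substrates tested 9 were called higher and 1 lower, or 58.8%, and 10 higher and 1 lower without sham D, or 64.7%. Laminin genes Lamb1 (0.94 ± 0.21), Lama2 (0.81 ± 0.18) and Lamb2 (0.58 ± 0.13) and the thrombospondins Thbs1 (0.87 ± 0.20) and Thbs2 (1.57 ± 0.51) rose, and Bcan fell by 1.36 on the log2 scale (adjusted p = 0.0248). Each of the regulators and substrates named here was also called without sham D.

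The groups of the 3 injury comparisons share no libraries, but both mouse comparisons came from the same model over 20 libraries. Across the 3 comparisons, Mmp16 rose by 1.28 in BALB/c, 1.01 in B10.D2 and 1.22 in rat on the log2 scale, and Mmp19 by 1.01, 0.65 and 1.21. These 2 were the only members called in all 3 by edgeR. Of the other members called in rat, Mmp23 (0.11 and 0.18), Adamts7 (0.10 and 0.03), Adamts20 (0.09 and 0.28), Timp3 (0.21 and 0.15) and Timp4 (0.14 and 0.20) were not called in BALB/c or B10.D2, as log2 fold changes in that order. Without single libraries the values of Mmp23 and Adamts20 in BALB/c, and of Adamts7 and Timp4 in both strains, fell below 0. Mmp2, Mmp17 and Adamts19 are listed at 0 in rat and could not be compared. Species, injury, ganglion level, day and library type differ between mouse and rat and cannot be told apart.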

How the data were processed

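According to the methods, libraries were paired-end and strand-specific, and the authors aligned reads with STAR to mm10 (mouse) or rn6 (rat) and counted them with HTSeq, and the deposited tables hold raw counts per gene and per assembled LncRNA. The deposited result tables hold the authors' DESeq2 comparisons, of which the symbol column alone was used. Sample 59 of B10.D2 sham and sample 66 of BALB/c SNI were not analysed here. Members, lists and motifs were chosen with earlier results of these data known.

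After TMM scaling and filterByExpr, edgeR 4.0.16 (R 4.3.3) gave two-sided quasi-likelihood F tests of each feature, with Benjamini-Hochberg adjustment over all features tested and a threshold of 0.05. The mouse model held sex, strain, surgery and strain by surgery over 20 libraries, and the rat model held surgery over 8. Tests were also run on simulated data. CPM are counts times 1000000 over the library total times its TMM factor. SE are absolute log2 fold changes over the square root of F. Intervals are log2 fold changes with 95% normal bounds.

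Mouse positions and merged exon lengths came from GENCODE M21, and promoter windows from RefSeq (GRCm38.p6), where 32 of 45 members had one. No rat annotation and no protein sequences were used. The rule for names gave every member called in a comparison, values by library for members called after injury or in the strain by injury test, the member with the highest CPM of each family in sham, and all untested members. Alternatives were DESeq2 1.42.0, relative log expression size factors, other filters on low counts, annotated genes alone, leaving out single libraries, and other models. No pair of libraries in a group agreed within sampling noise.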

Additional observations from a re-analysis of the deposited data

Results flagged for a closer look

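A member's value was marked where the gap between the highest or lowest library of a group and its neighbour took up an unusual share of the group's range (Dixon's 95% limit). Of 190 groups of member values examined, 14 (7.37%) met this, and chance gives about 5%. In rat the library labelled sham D was the highest of its group for Mmp16 (74.8 CPM, next 32.9 CPM), Mmp8 (14.7 CPM, next 2.44 CPM), Mmp12 (7.56 CPM, next 0.499 CPM), Mmp3 (5.73 CPM, next 0.855 CPM) and Mmp7 (1.17 CPM, next 0.0712 CPM). SNT C was the highest of its group for Mmp12 (68.3 CPM, next 7.30 CPM) and Mmp13 (37.7 CPM, next 2.69 CPM).

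In BALB/c, SNI 49 was the lowest of its group for Mmp28 (9.63 CPM, next 13.0 CPM) and Timp1 (2.79 CPM, next 3.54 CPM), SNI 70 the highest for Adamts8 (7.26 CPM, next 4.91 CPM) and sham 50 the highest for Mmp8 (10.3 CPM, next 4.22 CPM). In B10.D2, SNI 76 was the highest for Mmp13 (2.45 CPM, next 0.535 CPM), SNI 69 the lowest for Adamts5 (80.6 CPM, next 94.7 CPM) and sham 58 the highest for Mmp19 (4.97 CPM, next 4.01 CPM).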

How the results depend on the processing

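Of 28 member calls, 13 held under each alternative that tested them, and none changed direction. The other 15 calls were lost under at least 1 alternative. Of 35 further member values recomputed that were not called, 14 were called under some alternative and 9 changed direction when single libraries were left out. As log2 fold changes these ranged in BALB/c from -0.020 to 0.49 for Timp4, -0.041 to 0.22 for Mmp23, -0.0086 to 0.13 for Adamts20 and -0.032 to 0.16 for Adamts7, in B10.D2 from -0.075 to 0.49 for Timp1, -0.048 to 0.12 for Adamts7 and -0.10 to 0.39 for Timp4, and in rat from -0.22 to 1.92 for Mmp8 and -0.028 to 3.08 for Mmp13, which stood at -0.18 without sham D and SNT C. Mmp16 held in both mouse strains under all 28 alternatives, as did Mmp19 and Adamts19 in BALB/c, and in rat Timp3, Adamts20 and Timp4 held under all 16. Members called ranged, when single libraries were left out, from 3 to 8 in BALB/c, 1 to 6 in B10.D2, 8 to 12 between strains in sham and 3 to 13 in rat, and were 0 throughout for the interaction and for sex. All features called then ranged from 1643 to 2649 in BALB/c, 665 to 1214 in B10.D2, 4515 to 5473 between strains, 1483 to 5041 in rat, 3 to 6 for the interaction and 35 to 159 for sex. In B10.D2, 6 members were called by DESeq2 and 5 without the filter on low counts, and 1 member each without sham 77, SNI 69 or SNI 90 and 6 without SNI 89. In BALB/c 3 were called without SNI 64 or 65. DESeq2 called 10 features for the interaction and 245 for sex. A filter of 10 counts or more in each library left 3 features called for the interaction, and without the filter 222 for sex. With the strain effect averaged over sham and SNI, 8269 features were called between strains. Without rat sham D and SNT A, 12 members and 6100 features were called, 13 members without sham D, 3 without sham C, and 4 each without sham A, sham B or SNT C. The causes of these shifts were not tested.

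The titles of the rat libraries hold a number that a sham and an SNT library share, and the labels do not say what it stands for. Deviations of paired libraries from their group means correlated at -0.24 to 0.05, so the numbers were not taken as pairing the samples. With this shared number as a replicate block 5 members were called (Adamts7 and Mmp23 lost) and 2558 features. Mouse groups share no replicate numbers. With 4 rat libraries a group, 1 library can decide a call. Low counts limit Mmp12, Adamts18, Adamts19 and Mmp13 in mouse.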

Other observations

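Adamts9, Adamts10 and Adamts18 had the smallest unadjusted p-values of the members for sex, with log2 differences, female minus male, of 0.20 ± 0.06 (adjusted p = 0.168), 0.17 ± 0.06 (adjusted p = 0.209) and 0.72 ± 0.24 (adjusted p = 0.222) by edgeR, and none was called. The summed CPM of the family members in mouse were 849 ± 37.8 for TIMPs in BALB/c sham and 736 ± 52.4 in B10.D2 sham (SD, n = 6 and 5), with 900.2 ± 44.6 and 759 ± 57.6 after SNI. MMP members summed to 248.7 ± 14.1 CPM in BALB/c sham and 301 ± 18.3 CPM after SNI, and to 259 ± 22.6 and 300.1 ± 29.3 CPM in B10.D2. ADAMTS members summed to 381 ± 19.5 and 404 ± 35.7 CPM in BALB/c, and to 381 ± 11.4 and 413 ± 27.4 CPM in B10.D2.

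Substrate genes also differed between the strains in sham, where 7 of 26 were called higher and 5 lower in B10.D2, or 46.2% of the list beside 21.6% of all features. Comp, cartilage oligomeric matrix protein, was at 18.9 CPM in B10.D2 and 40.6 CPM in BALB/c (log2 difference -1.06 ± 0.16, adjusted p = 3.00e-05). Ncan, neurocan, was at 15.3 and 28.8 CPM (-0.91 ± 0.12, adjusted p = 9.36e-06), and Acan was at 0.905 and 0.250 CPM (1.88 ± 0.53, adjusted p = 0.0138).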
